A study of Mus musculus with 13 samples.

Results

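The genes described here are the 10 that carry prostaglandin synthesis and prostaglandin reception in the list chosen by symbol: Pla2g4a, Ptgs1, Ptgs2, Ptges, Ptges2, Ptges3, Ptgis, Ptger1, Ptger4 and Ptgfr. Each symbol matched 1 Ensembl gene of the 16382 in the count tables. All 10 were tested, and none fell below the filter on low counts. RNA was sequenced from wild-type C2C12 myotubes, the multinucleated cells that a mouse myoblast line forms in low-serum medium. At day 8 of differentiation the medium was exchanged for medium with palmitoylethanolamide (PEA, 10 μM, a fatty acid amide) or with the DMSO vehicle alone (CON), and cells were lysed after 24 h. There were 6 libraries of each treatment, from duplicate wells, which are technical replicates, in 3 repeats of the experiment. The labels do not tell which wells shared a repeat, so n = 6 below counts libraries, of which 3 repeats are independent, and p-values over 6 libraries may be too small. All libraries come from 1 cell line, and every value is an mRNA level, not an enzyme activity or a prostaglandin concentration.

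Prostaglandins are made on demand from arachidonic acid held in membrane phospholipids. Cytosolic phospholipase A2 (Pla2g4a) frees the acid, a cyclooxygenase (Ptgs1, generally constitutive, or Ptgs2, generally inducible) turns it into the common precursor, and terminal synthases make the separate prostanoids. The products leave the cell and act on G protein-coupled receptors of the same or nearby cells. In skeletal muscle, prostaglandin E2 acting on the receptor encoded by Ptger4 is known for its role in muscle stem cells, and prostaglandin F2α, the ligand of the receptor encoded by Ptgfr, for its role in the growth of myotubes.

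Libraries held between 12354845 and 50397444 estimated counts, with CON replicate 1 2.25 times as deep as the next. Expression is given as normalized counts, the authors' counts divided by 1 size factor per library, and as mean ± SD over 6 libraries. Treatments were compared with edgeR's quasi-likelihood test with Benjamini-Hochberg adjustment over 13142 genes, and genes with an adjusted p below 0.05 are said to be called. Log2 fold changes compare PEA with CON. Over all genes tested, 11.0% were called, 6.31% as higher and 4.74% as lower in PEA, and the median log2 fold change was 0.01.

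Of the 10 genes, 2 were significantly upregulated in PEA, Ptgs2 and Pla2g4a, and 0 were downregulated. The upregulated genes encode the inducible cyclooxygenase and the phospholipase that supplies its substrate. The other 8 genes, which include the constitutive cyclooxygenase, all 4 terminal synthases and all 3 receptors, did not pass the test. Of these 8, 0 reached an unadjusted p below 0.05 in edgeR, and DESeq2 and limma-voom likewise called 2 genes higher and 0 lower. The log2 fold change was above 0 for 5 genes and below 0 for 5, with a median of 0.04. The sign of 2 of the 5 below 0 turned when 1 library was left out: Ptges had 0.0086 without CON replicate 1, and Ptges2 had 0.0155 without CON replicate 2, 0.0090 without CON replicate 4 and 0.0082 without PEA replicate 3. With 10 genes, the 2 calls are 20% of the list against 6.31% called higher among all genes tested.

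**Figure D1:**
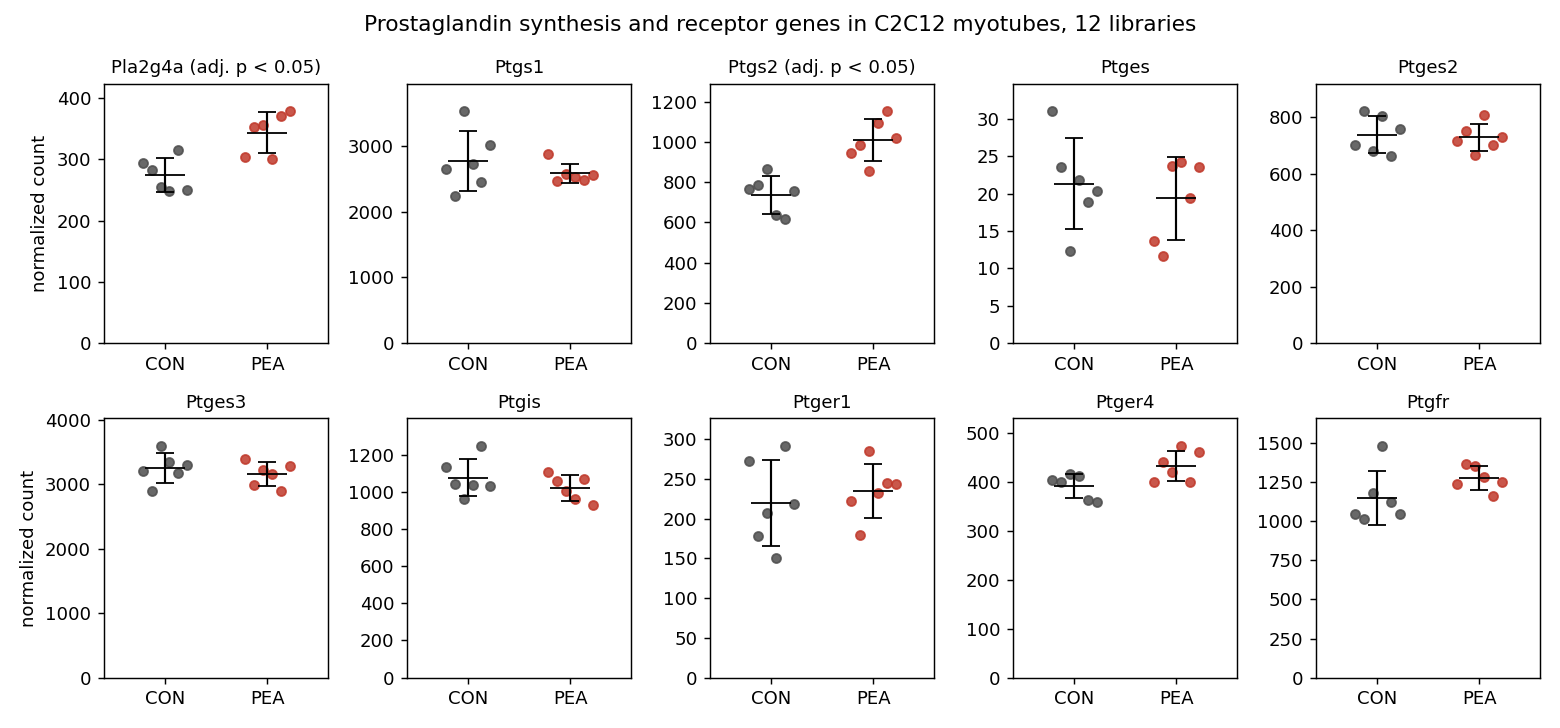
Normalized counts (y axis, from 0) of the 10 genes in CON (grey) and PEA (red), 1 point per library, with the mean and SD of 6 libraries in black. Ptgs2 and Pla2g4a lie higher in PEA, with 5 and 4 PEA libraries above the highest CON library, while the groups overlap widely for the synthases.

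Ptgs2 (ENSMUSG00000032487, GRCm39 chr1:149975194-149983978, plus strand) showed the largest increase among the 10. Its normalized count in CON had a lowest value of 618, a median of 760.5 and a highest value of 865, against 857, 1005 and 1153 in PEA. Thus 5 of 6 PEA libraries were above every CON library, and the overlap consisted of CON replicate 3 lying just above PEA replicate 3. The mean rose from 738 ± 94.2 (SD, n = 6) to 1011 ± 106 (SD, n = 6), an increase of 36.9%. In edgeR the log2 fold change was 0.45 (SE 0.08, 95% interval 0.27 to 0.63, adjusted p = 0.00425). Its absolute log2 fold change exceeded that of 92.0% of all genes tested. The call held in all 12 fits that left out a library, with adjusted p-values between 0.00141 and 0.0146. Leaving out a library keeps the duplicate well of its repeat, so such fits cannot show whether a call depends on a repeat of the experiment. An annotated antisense transcript on the opposite strand, Ptgs2os, shares 9.29% of the exon bases of Ptgs2, and no value for it was used.

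Pla2g4a (ENSMUSG00000056220, GRCm39 chr1:149705369-149837053, minus strand) had a lowest value of 248, a median of 269 and a highest value of 316 normalized counts in CON. In PEA these values were 299.8, 354 and 378. Here 4 of 6 PEA libraries lay above all CON libraries, and 5 of 6 CON libraries lay below all PEA libraries. The mean changed from 274 ± 27.7 (SD, n = 6) to 344 ± 33.8 (SD, n = 6), or by 25.3%. The log2 fold change was 0.33 (SE 0.09, 95% interval 0.14 to 0.51, edgeR adjusted p = 0.025). The call for Pla2g4a rested on fewer counts than that for Ptgs2, between 201 and 767 per library, and was less stable. It was lost without CON replicate 6 (adjusted p = 0.0603), PEA replicate 2 (adjusted p = 0.0526), PEA replicate 5 (adjusted p = 0.0626) or PEA replicate 6 (adjusted p = 0.0659), while the log2 fold change stayed between 0.30 and 0.37 over all 12 such fits.

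The start regions of the upregulated genes are shown with that of Ptgs1, the cyclooxygenase gene that was not called, so that their sequences can be compared. Each is a window of 300 bases in RefSeq for GRCm38.p6, from 250 bases before to 50 after the annotated start, read along the gene. The Ptgs2 window is chr1:150099781-150100080 on the plus strand, that of Pla2g4a is chr1:149961241-149961540 on the minus strand, the farther upstream of 2 starts, and that of Ptgs1 is chr2:36230176-36230475 on the plus strand. Capitals mark letters of the CRE, C/EBP, E-box, NF-κB, AP-1 and TATA motifs, on either strand.
Ptgs2: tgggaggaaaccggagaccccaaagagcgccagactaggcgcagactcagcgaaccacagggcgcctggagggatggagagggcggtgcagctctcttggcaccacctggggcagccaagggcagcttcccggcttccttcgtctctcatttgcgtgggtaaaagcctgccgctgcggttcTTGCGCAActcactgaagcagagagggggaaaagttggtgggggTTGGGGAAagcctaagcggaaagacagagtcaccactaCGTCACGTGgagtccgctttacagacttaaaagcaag
Pla2g4a: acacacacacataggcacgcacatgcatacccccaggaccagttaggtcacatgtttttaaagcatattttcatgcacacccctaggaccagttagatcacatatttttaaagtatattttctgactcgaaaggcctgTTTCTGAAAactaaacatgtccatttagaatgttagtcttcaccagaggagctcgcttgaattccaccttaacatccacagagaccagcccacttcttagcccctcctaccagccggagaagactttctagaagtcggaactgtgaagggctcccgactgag
Ptgs1: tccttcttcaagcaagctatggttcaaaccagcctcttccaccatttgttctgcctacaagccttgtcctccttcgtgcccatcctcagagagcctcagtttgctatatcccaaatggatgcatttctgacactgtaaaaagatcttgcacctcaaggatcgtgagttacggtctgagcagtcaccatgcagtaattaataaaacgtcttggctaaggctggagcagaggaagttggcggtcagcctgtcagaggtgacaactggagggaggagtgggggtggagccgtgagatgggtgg

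The Ptgs2 window held 2 matches to the C/EBP letters TTNNGNAA, and near its end the run CGTCACGTG, in which the short cyclic AMP response element TGACG, read on the opposite strand, and the E-box CACGTG overlap by 2 letters. This joined element is a known feature of the Ptgs2 promoter, and in this window it lies after the annotated start. The Ptgs2 window also held 1 GC box, GGGCGG, left in lower case. The Pla2g4a window shown held 2 overlapping C/EBP matches and no other motif searched, the window of its other start held a TATA box and a CCAAT box, and the Ptgs1 window held none. C/EBP letters were found for 5 of the 8 genes with a window, which include Ptges, Ptges2 and Ptgfr, so they do not set apart the upregulated genes. The short element was also found for Ptges3 and the E-box for Ptges2, neither of which was called. Over all 32851 windows of the same length the C/EBP letters occurred in 40.7% and the short element in 20.8%. The E-box occurred in 7.15%, the TATA box TATAAA in 13.6% and the CCAAT box in 37.4%. Neither the full response element TGACGTCA, present in 1.79% of windows, nor the NF-κB letters GGANNTTCC, present in 4.26%, nor the AP-1 letters TGANTCA, present in 7.81%, occurred in any window of the 8 genes that have one. GC boxes were present in 35.7% of all windows and in those of 5 of the 8 genes. The heat shock letters GAANNTTC, present in 7.86%, occurred for Ptges2 and Ptgfr. A match is a description of the letters and not a measured binding site.

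Ptgs1 (ENSMUSG00000047250, GRCm39 chr2:36120438-36142287, plus strand) had a lowest value of 2242, a median of 2698 and a highest value of 3533 normalized counts in CON, and 2473, 2549 and 2881 in PEA. All PEA libraries were within the CON range. The means were 2775 ± 456 (SD, n = 6) and 2586 ± 150 (SD, n = 6), and the log2 fold change was -0.10 (SE 0.08, 95% interval -0.28 to 0.08, edgeR adjusted p = 0.479). The 95% intervals of the cyclooxygenase genes did not overlap. Per 1000 bases of the longest annotated transcript, the level of Ptgs2 was 0.163 ± 0.0268 (SD, n = 6) of that of Ptgs1 in CON and 0.237 ± 0.0325 (SD, n = 6) in PEA. This ratio lay between 0.141 and 0.213 in CON and between 0.199 and 0.28 in PEA, with 4 of 6 PEA libraries above all CON libraries. Ptgs1 remained the cyclooxygenase with the higher level in all 12 libraries.

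The 3 genes for prostaglandin E synthases did not pass the test, and they differed widely in level. Ptges3 (ENSMUSG00000071072, GRCm39 chr10:127894816-127913141, plus strand) encodes cytosolic prostaglandin E synthase, which is also the Hsp90 co-chaperone p23. It had a lowest value of 2901, a median of 3249 and a highest value of 3592 normalized counts in CON, and 2889, 3190.4 and 3396 in PEA. For Ptges3 the log2 fold change was -0.04 (SE 0.05, 95% interval -0.15 to 0.07, edgeR adjusted p = 0.662), the narrowest interval of the 10 genes. The annotation holds 1 pseudogene copy, Ptges3-ps, so reads shared between them are uncertain.

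Ptges2 (ENSMUSG00000026820, GRCm39 chr2:32285659-32295786, plus strand), a membrane-associated form, had values from 664 to 821 in CON and from 665 to 807 in PEA, so its groups nearly coincided. The log2 fold change of Ptges2, -0.02 (SE 0.07, 95% interval -0.15 to 0.12, edgeR adjusted p = 0.899), was the smallest in size of the 10 genes. Ptges (ENSMUSG00000050737, GRCm39 chr2:30779483-30820196, minus strand) encodes the microsomal form that is usually induced together with Ptgs2. It had only 10 to 81 estimated counts per library, with 12.3 to 31 normalized counts in CON and 11.6 to 24.2 in PEA. The log2 fold change was -0.17 (SE 0.27), with a 95% interval from -0.75 to 0.41 and an edgeR adjusted p of 0.738. At this depth a change as large as that of Pla2g4a, in either direction, was not detectable.

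Ptgis (ENSMUSG00000017969, GRCm39 chr2:167033725-167083018, minus strand), which encodes prostacyclin synthase, had a lowest value of 962, a median of 1038 and a highest value of 1245 normalized counts in CON, and 930.2, 1030.3 and 1104 in PEA. Of the PEA libraries, 2 were below the lowest CON library and the rest were within the CON range. With edgeR the log2 fold change was -0.07 (SE 0.06, 95% interval -0.21 to 0.06, edgeR adjusted p = 0.499).

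**Figure D2:**
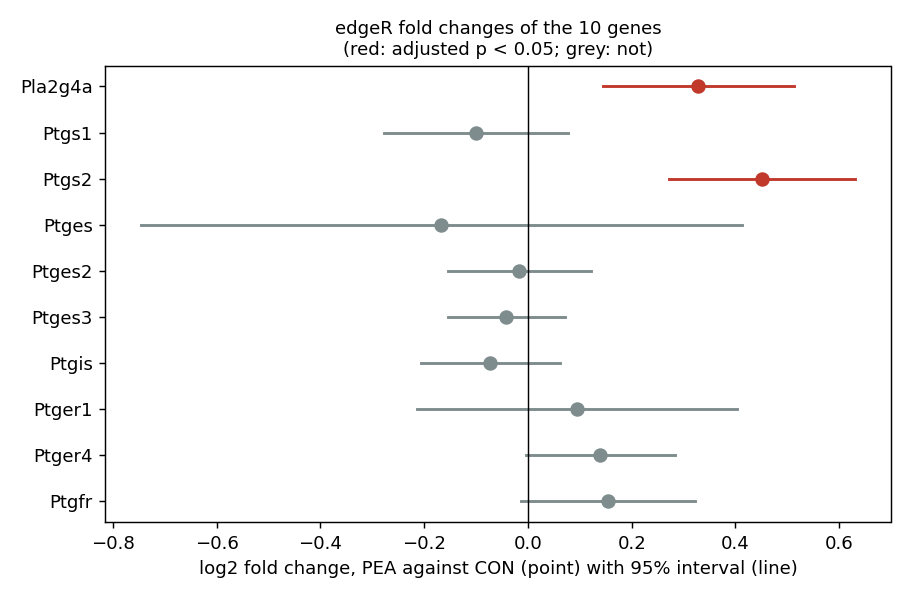
Log2 fold change of each gene, PEA against CON (x axis, point), with its 95% interval (line), from edgeR. Red genes have an adjusted p below 0.05, and only the intervals of Ptgs2 (0.27 to 0.63) and Pla2g4a (0.14 to 0.51) lie wholly above 0, while that of Ptges is the widest.

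The receptor genes had estimates above 0 and did not pass the test. Ptgfr (ENSMUSG00000028036, GRCm39 chr3:151502139-151543267, minus strand) encodes the receptor for prostaglandin F2α, which couples to Gq proteins. Its normalized count had a lowest value of 1015, a median of 1085 and a highest value of 1479 in CON, and 1159, 1263 and 1366 in PEA. The highest of the 12 values was that of CON replicate 4, and 4 of the 6 CON libraries lay below all PEA libraries. The means were 1147 ± 173 (SD, n = 6) and 1273 ± 77.4 (SD, n = 6), with a log2 fold change of 0.15 (SE 0.08, 95% interval -0.01 to 0.32, edgeR adjusted p = 0.220). Without CON replicate 4 the log2 fold change was 0.24 and the adjusted p was 0.0156, so the outcome for Ptgfr turned on 1 control library.

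Ptger4 (ENSMUSG00000039942, GRCm39 chr15:5236142-5273673, minus strand) encodes the prostaglandin E2 receptor that couples to Gs proteins and raises cyclic AMP. It had a lowest value of 359, a median of 403 and a highest value of 415 in CON, and 399, 430.2 and 473 in PEA. Of the PEA libraries, 4 lay above all CON libraries. For Ptger4 the log2 fold change was 0.14 (SE 0.07, 95% interval -0.0041 to 0.28, edgeR adjusted p = 0.196), and no fit without 1 library called it. A processed pseudogene on the opposite strand shares 15.3% of its exon bases.

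Ptger1 (ENSMUSG00000019464, GRCm39 chr8:84393264-84399384, plus strand) encodes the prostaglandin E2 receptor linked to calcium signalling. It ranged from 151 to 291 normalized counts in CON and from 179.7 to 286 in PEA, so the PEA values lay within the CON range, with a log2 fold change of 0.09 (SE 0.15, 95% interval -0.21 to 0.40, edgeR adjusted p = 0.719). Its counts are uncertain, because the library kit does not mark strand and strand-specific counting is not stated, so reads from the opposite strand at this position cannot be told apart from its own.

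The coefficient of variation between libraries was larger in CON than in PEA for 9 of the 10 genes, the exception being Ptger4, and for 65.8% of all genes tested. For Ptges it was nearly equal, at 28.7% in CON and 28.6% in PEA, and the SDs of Ptgs2 and Pla2g4a were larger in PEA. For Ptgs1 the coefficient was 16.4% in CON and 5.81% in PEA, and for Ptgfr it was 15.1% and 6.08%. For Pla2g4a it was 10.1% and 9.85%, and for Ptgs2 12.8% and 10.5%. For none of the 10 genes were the treatments fully separated in normalized count, compared with 4.34% of all genes tested.

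To compare levels between genes, normalized counts were divided by the length of the longest annotated transcript and are given per 1000 bases. The transcripts in use were not measured, so a gene that mainly uses a shorter transcript would be placed too low. Ptges3 had the highest level, 1620.3 ± 113 (SD, n = 6) in CON, followed by Ptgs1 with 967 ± 159 (SD, n = 6) and Ptgis with 443 ± 41.2 (SD, n = 6). These 3 were separated from each other and from the next gene in all 12 libraries without overlap of their ranges. Ptgs2 came next over all libraries, with 156 ± 19.8 (SD, n = 6) in CON against 213 ± 22.3 (SD, n = 6) in PEA. Ptgfr had 173 ± 26.1 (SD, n = 6) in CON against 192 ± 11.7 (SD, n = 6) in PEA. The order of these 2 was not settled: Ptgs2 was above Ptgfr in 9 of 12 libraries, and with the union of all exons as the length their order was the opposite. Ptgfr was above Ptges2 in 11 of 12 libraries.

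Below them the levels in CON were 139.8 ± 12.5 (SD, n = 6) for Ptges2, 104 ± 6.57 (SD, n = 6) for Ptger4, 69.2 ± 6.97 (SD, n = 6) for Pla2g4a and 45.1 ± 11.1 (SD, n = 6) for Ptger1. Each was above the next in all 12 libraries, although the union of exons, which is longer for Pla2g4a, placed Ptger1 above Pla2g4a. Ptges had the lowest level, 5.12 ± 1.47 (SD, n = 6). Among the receptor genes, Ptgfr stood 1.66 ± 0.219 (SD, n = 6) times as high as Ptger4 per length in CON and 1.68 ± 0.125 (SD, n = 6) times in PEA.

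**Figure D3:**
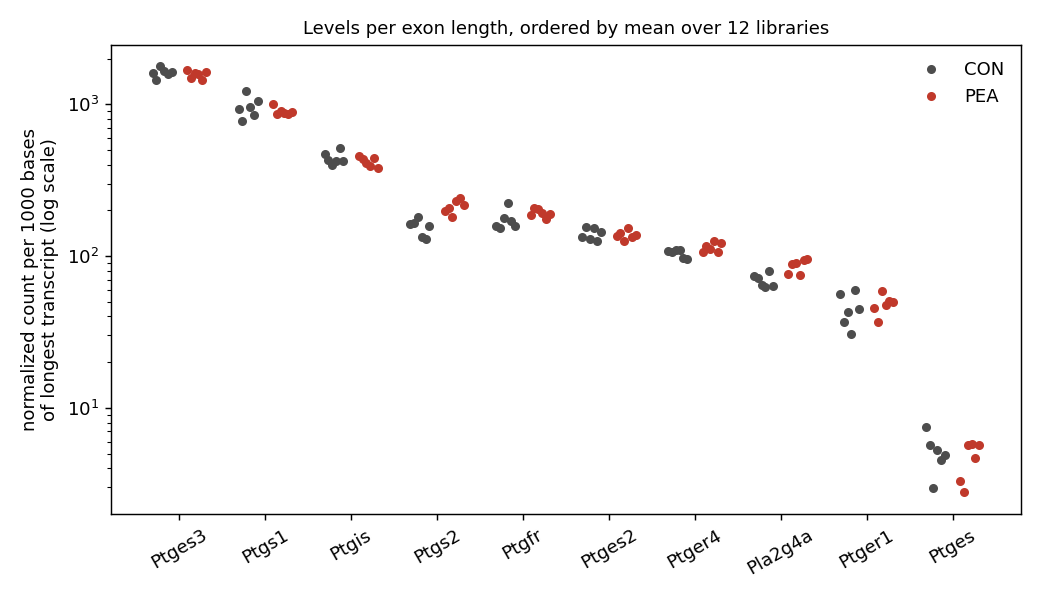
Normalized count per 1000 bases of the longest transcript (y axis, log scale) for each gene, in CON (grey) and PEA (red), 1 point per library. Levels run from Ptges3, above 1439 in every library, to Ptges, at most 7.44, and the points of Ptgs2 and Ptgfr overlap.

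Ptgs2 and Pla2g4a are neighbours on chromosome 1. Their gene bodies are 138.1 kb apart, on opposite strands, with no other protein-coding gene between them in the annotation. The surrounding genes were looked at after the values of both had been seen. Within 1000 kb on either side of Ptgs2 there were 7 protein-coding genes, of which 5 were tested. The genes beyond Ptgs2 were not called: Odr4 had a log2 fold change of 0.05 (SE 0.05, edgeR adjusted p = 0.612) and Tpr, which encodes a nuclear pore protein, one of 0.09 (SE 0.06, adjusted p = 0.378). Prg4, which encodes lubricin, had a log2 fold change of 0.57 (SE 0.19, adjusted p = 0.0644), with 196 ± 47.7 (SD, n = 6) normalized counts in CON against 292 ± 94 (SD, n = 6) in PEA. Since the stretch was chosen around Ptgs2 and Pla2g4a, only the other 3 tested genes are informative, and 0 of these 3 were called by edgeR, with Prg4 at an unadjusted p of 0.00882, while 6.31% of all genes were called higher.

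**Figure D4:**
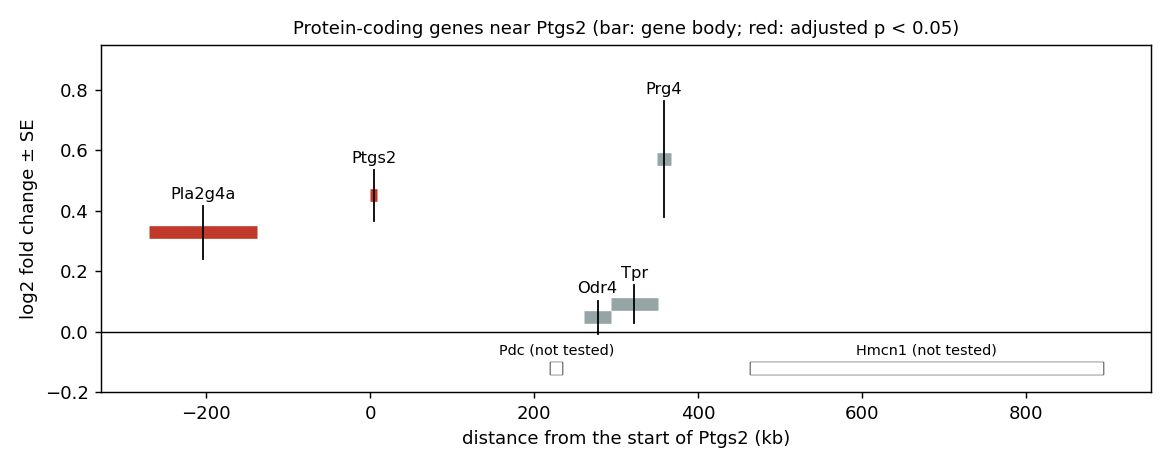
Log2 fold change (y axis, with SE as a black line) of protein-coding genes against distance from the start of Ptgs2 in kb (x axis), with each bar as long as the gene body. Pla2g4a and Ptgs2 (red) have an adjusted p below 0.05, Odr4 and Tpr lie near 0, Prg4 has the highest estimate without passing the test, and 2 genes were not tested.

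The rest of the pathway was examined through 9 lists of other genes, 116 in all, of which 103 were in the tables and 78 were tested. Of these 78, 3 were called higher and 5 lower, or 10.3% against 11.0% of all genes, and their median log2 fold change was -0.0028. Hence the share of calls was near that of all genes. The lists are described below from substrate supply to signalling.

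In the list for arachidonate release and re-esterification, 1 of 8 tested genes was called. Lpcat3, whose enzyme puts arachidonate and other polyunsaturated acids back into phospholipids, was downregulated from 1591 ± 98 (SD, n = 6) to 1396 ± 31.4 (SD, n = 6) normalized counts. The groups did not overlap, and the log2 fold change was -0.19 (SE 0.05, edgeR adjusted p = 0.0184). Plaa, encoding a phospholipase-activating protein, had a log2 fold change of -0.06 (SE 0.04, adjusted p = 0.358), and Acsl4, encoding a ligase for arachidonate, had 0.06 (SE 0.06, adjusted p = 0.579). The median log2 fold change of the list was -0.05.

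Among the other prostanoid synthases, 0 of 3 tested genes were called by edgeR, with 1 at an unadjusted p below 0.05. Cbr1, encoding a carbonyl reductase that acts on prostaglandin E2, had a log2 fold change of -0.15 (SE 0.06, adjusted p = 0.102). Akr1b1 (listed as Akr1b3), whose enzyme can make prostaglandin F2α, had -0.06 (SE 0.06, adjusted p = 0.595). The genes for thromboxane synthase (Tbxas1, at most 3.14 normalized counts) and Prxl2b were below the filter. In the list for transport and breakdown, 1 of 5 tested genes was called, and 3 had an unadjusted p below 0.05. Ptgr1, encoding prostaglandin reductase, rose from 1105 ± 139 (SD, n = 6) to 1319 ± 76 (SD, n = 6), with a log2 fold change of 0.26 (SE 0.07, edgeR adjusted p = 0.029). This call held in 4 of 12 fits without a library (without CON replicate 2, CON replicate 4, PEA replicate 2 or PEA replicate 3), and the largest adjusted p was 0.0709, without CON replicate 6. Ptgr2 had a log2 fold change of 0.04 (SE 0.05, adjusted p = 0.634) and Ptgr3 one of -0.05 (SE 0.07, adjusted p = 0.670). Hpgd, the gene for the main enzyme that inactivates prostaglandins, was below the filter, at up to 15.3 normalized counts.

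Among the other prostanoid receptors and their regulator, 0 of 2 tested genes were called, and 0 had an unadjusted p below 0.05. Ptgir, encoding the prostacyclin receptor, had 96.8 ± 27.6 (SD, n = 6) normalized counts in CON against 83.8 ± 12.5 (SD, n = 6) in PEA. For Ptgir the log2 fold change was -0.23 (SE 0.18, edgeR adjusted p = 0.453). Ptgfrn, encoding a protein that binds the F2α receptor, had a log2 fold change of 0.0030 (SE 0.07, adjusted p = 0.982). Ptger2, Ptger3, Ptgdr2 and Tbxa2r were below the filter, and the highest value of any of them was 8.72 normalized counts, for Ptgdr2. The receptors with counts to test were therefore Ptgfr, Ptger4, Ptgir and, with the limit on strand given above, Ptger1.

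Among genes of other arachidonate branches, 1 of 6 tested genes was called. Ephx2, encoding soluble epoxide hydrolase, fell from 22.2 ± 9.04 (SD, n = 6) to 10.7 ± 3.87 (SD, n = 6) normalized counts, a log2 fold change of -1.07 (SE 0.32, edgeR adjusted p = 0.043). At these low counts the call held in 2 of 12 fits without a library (without CON replicate 2 or PEA replicate 1), and the largest adjusted p was 0.107, without CON replicate 3. Alox5, the gene for the lipoxygenase that begins leukotriene synthesis, had a log2 fold change of -0.05 (SE 0.06, adjusted p = 0.664), and Ephx1 one of -0.04 (SE 0.04, adjusted p = 0.601). The median of this list was -0.04.

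Hsp90 and its co-chaperones, the partners of the protein encoded by Ptges3, gave 0 calls by edgeR among 9 tested genes, with 1 at an unadjusted p below 0.05. Hsp90ab1 had a log2 fold change of -0.03 (SE 0.05, adjusted p = 0.733) and Hsp90aa1 one of 0.06 (SE 0.06, adjusted p = 0.549). The list of G proteins and effectors of prostanoid receptors gave 0 calls among 12 tested genes, with 3 at an unadjusted p below 0.05. Gnas had a log2 fold change of 0.09 (SE 0.04, adjusted p = 0.187) and Gnai2 one of -0.03 (SE 0.04, adjusted p = 0.684). DESeq2 and limma-voom each called 4 genes of all lists higher, and 7 and 5 lower.

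Among 15 tested genes induced by cyclic AMP and CREB, the route used by the Ptger4 receptor, 1 was called and 4 had an unadjusted p below 0.05. Junb, encoding a subunit of AP-1, was upregulated from 4404 ± 369.7 (SD, n = 6) to 5825 ± 837 (SD, n = 6), with a log2 fold change of 0.41 (SE 0.08, edgeR adjusted p = 0.0063). The rest of the list did not pass the test, and the cause of the Junb change was not tested. Sik1 had a log2 fold change of -0.23 (SE 0.09, adjusted p = 0.0877), and it was called lower by DESeq2 (adjusted p = 0.0487) and by edgeR without CON replicate 3 (adjusted p = 0.0248). Dusp1 had a log2 fold change of -0.04 (SE 0.05, adjusted p = 0.693). The median of the list was 0.01.

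Of 18 tested regulators of Ptgs2 transcription and mRNA decay, 1 was called higher and 3 lower, or 22.2% called against 11.0% of all genes, and 10 had an unadjusted p below 0.05. Celf2, whose RNA-binding protein attaches to the Ptgs2 transcript, fell from 2471 ± 116 (SD, n = 6) to 2024 ± 184 (SD, n = 6), with a log2 fold change of -0.29 (SE 0.06, edgeR adjusted p = 0.00541). Il1a, encoding a cytokine that induces Ptgs2 in many cells, had 56.1 ± 8.87 (SD, n = 6) normalized counts in CON against 26.9 ± 11.6 (SD, n = 6) in PEA, with a log2 fold change of -1.06 (SE 0.26, adjusted p = 0.0169). Nfkbia, encoding an inhibitor of NF-κB, had a log2 fold change of -0.26 (SE 0.08, adjusted p = 0.0386). The called gene that was higher in PEA was Zfp36, encoding the mRNA decay factor tristetraprolin, at 355 ± 29.4 (SD, n = 6) in CON against 444 ± 68.1 (SD, n = 6) in PEA, a log2 fold change of 0.33 (SE 0.10, adjusted p = 0.0426).

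These calls were not equally stable. The calls for Celf2, Il1a, Junb and Lpcat3 held in all 12 fits without a library, with the limit on repeats given for Ptgs2. Nfkbia was called in 3 of these fits (without CON replicate 1, CON replicate 2 or PEA replicate 1), with a largest adjusted p of 0.086 without PEA replicate 5. Zfp36 was also called in 3 (without CON replicate 2, CON replicate 4 or PEA replicate 3), with a largest adjusted p of 0.0998 without PEA replicate 2. Jun had a log2 fold change of 0.10 (SE 0.04, adjusted p = 0.135) and Nfkb1 one of -0.04 (SE 0.07, adjusted p = 0.758). The median of this list was -0.00081.

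**Figure D5:**
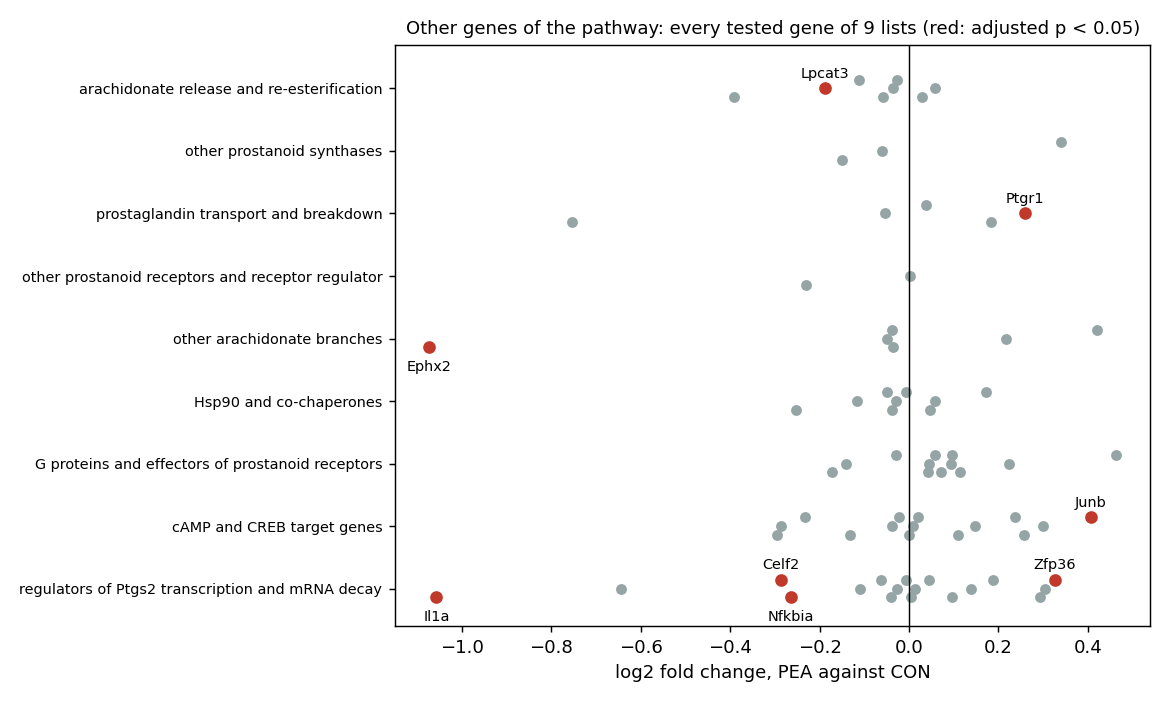
Log2 fold change (x axis) of every tested gene in 9 lists of other pathway genes (y axis), from edgeR, with genes at an adjusted p below 0.05 in red and named. Of 78 genes, 3 red points lie above 0 (Ptgr1, Junb and Zfp36) and 5 below (Lpcat3, Ephx2, Il1a, Celf2 and Nfkbia).

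Markers of cell types and states were measured beside these genes. All 8 myotube markers were present, and they summed to between 124260 and 188220 normalized counts in CON and between 130930 and 147540 in PEA, with 1 of 8 (Tnnt3) called lower and 0 higher. The log2 fold change was below 0 for all 8 (range -0.33 to -0.08, median -0.23), and 5 had an unadjusted p below 0.05. Of 8 markers of unfused or dividing myoblasts, 5 were called higher (Mki67, Top2a, Cdk1, Ccnb1 and Birc5) and 0 lower, and their sums ranged from 3325 to 6747 in CON and from 6485 to 7525 in PEA. The other 3 were not called, with log2 fold changes of -0.21 for Spry1 (SE 0.07, edgeR adjusted p = 0.0508), -0.02 for Pax7 (SE 0.16, adjusted p = 0.947) and 0.09 for Myf5 (SE 0.10, adjusted p = 0.580). The 5 markers of division thus moved in the same direction as Ptgs2 and Pla2g4a, the 3 markers of unfused myoblasts did not pass the test, and the part of either marker list in those changes was not tested. In bulk RNA, fewer cells of a type and less RNA per cell cannot be told apart.

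Leucocyte markers are of interest because macrophages express prostaglandin genes strongly, and they differed in level. Ptprc had 0 counts in 10 of 12 libraries, Itgam in 4 and Csf1r in 1, and these 3 were below the filter. The 6 of 8 leucocyte markers in the tables summed to between 604 and 822 in CON and between 693 and 892 in PEA, mostly from Cd14, at 554 ± 63.7 (SD, n = 6) in CON against 657 ± 80 (SD, n = 6) in PEA, which had a log2 fold change of 0.25 (SE 0.09, edgeR adjusted p = 0.0722). Cd68 had 100.0 ± 27.5 (SD, n = 6) in CON against 96.4 ± 17.7 (SD, n = 6) in PEA and was above 0 in all 12 libraries. Of 7 fibroblast markers, 6 were tested, with 1 (Dcn) called higher and 1 (Pdgfrb) lower, and their sums were 8307 to 12472 in CON and 10942 to 11887 in PEA. Endothelial and smooth muscle markers summed to at most 107 in CON and 103 in PEA, with 0 of 1 tested gene called. The part of these cell types in the changes of Ptgs2 and Pla2g4a was not tested.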

How the data were processed

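RNA-seq libraries of C2C12 myotubes were compared, 6 CON and 6 PEA. The labels have 13 entries because PEA replicate 2 was sequenced again; both entries share 1 row of values, which is 1 library here. Per the labels and methods, the authors aligned reads with STAR 4.4.1d to mm39 and used Partek Flow for quantification to Ensembl genes. They deposited estimated counts, which need not be whole. They also deposited a normalized signal, the same counts divided by 1 DESeq2 factor per library, on a linear scale. The tables stop at 16382 genes in identifier order, and later identifiers were not analysed here.

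Estimated counts were rounded and tested with edgeR 4.0.16 (TMM; low-count genes removed by its default filter) under R 4.3.3. SE was derived from the test statistic. Alternatives used DESeq2 1.42.0, limma 3.58.1 (log2 with a pseudocount of 1), other size factors, filters and depth, a replicate block and single libraries left out. Tables were made with Python 3.11.15. Scripts were tested on simulated data. Symbols and positions came from GENCODE for GRCm39, and promoters from RefSeq for GRCm38.p6, which held 8 of the 10 genes. Intervals reflect counting error plus the variation among libraries and nothing else.

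The 10 genes, the lists and the tests were chosen with earlier results of these data known. From each list, the text names at most 4 called genes with the smallest p and the 2 most abundant genes not called. Genes of the chromosome 1 stretch, marker genes and genes below the filter were named outside this rule.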

Additional observations from a re-analysis of the deposited data

Results flagged for a closer look

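Among the 36 genes named by rule, each treatment was searched for a library far from the other 5 (Dixon's criterion at 95%). Of 72 groups, 5 held such a library, where chance flags about 1 in 20. Ptgs1 was 2881 normalized counts in PEA replicate 1, against 2473 to 2576 in the other PEA libraries. Ptgfr was 1479 in CON replicate 4, against 1015 to 1176 in the other CON libraries, and this is the library whose removal made Ptgfr pass the test. Cbr1 was 671.5 in PEA replicate 2, against 752 to 789.5 in the others, and Hsp90aa1 was 13260.0 in the same library, against 15420.0 to 16010.0. Alox5 was 4054 in PEA replicate 4, against 4540.0 to 4811.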

How the results depend on the processing

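Ptgs2 was called higher under all 8 alternatives that used all libraries, with log2 fold changes from 0.44 to 0.46 and adjusted p-values up to 0.0115, and at an adjusted p below 0.01. Pla2g4a was called under the same 8 alternatives, with log2 fold changes from 0.32 to 0.34 and adjusted p-values from 0.0098 to 0.0489, the highest with libraries thinned to the smallest total. At an adjusted p below 0.01, 1 of the 10 genes was called higher and 405 of all genes were called, with 1 pathway gene higher and 1 lower. Leaving out 1 library gave between 1 and 3 of the 10 genes called higher, 0 lower, between 778 (without PEA replicate 6) and 2203 (without CON replicate 2) calls over all genes, and between 1 and 5 pathway genes higher and between 3 and 8 lower. Replicate numbers did not pair the libraries: the deviations of same-numbered libraries correlated between -0.083 and 0.065. With the number as a replicate block, 1570 genes were called, including Ptgs2 (adjusted p = 0.0115) and Pla2g4a (adjusted p = 0.0334), and 2 of the 10 genes were called higher, 0 lower, 3 pathway genes higher and 5 lower. The block changed no call among the 10 genes, but the pathway gene Ephx2 was not called with it (edgeR adjusted p = 0.0846). The labels do not tie the number to a repeat of the experiment, so this fit does not account for the repeats. The pathway alternatives were chosen after seeing the data. The union of exons moved Ptgs2 from rank 4 to 5, Ptgfr from 5 to 4, Pla2g4a from 8 to 9 and Ptger1 from 9 to 8 in level, and CPM with TMM factors moved no rank. With thinned libraries the log2 fold change of Ptges was -0.32, still not called. Low counts limit what can be said of Ptges and Ephx2. Ephx2 was called under 3 of the 7 full-library alternatives that tested it, Ptgr1 was not called with thinned libraries (adjusted p = 0.0565), and Zfp36 not by limma on the normalized counts (adjusted p = 0.0541). The cause was not tested. A planned comparison of the protein sequences was not run.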
